A study of Mus musculus with 8 samples.

Results

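HoxA genes code for homeodomain transcription factors of the HoxA cluster, and Meis and Pbx genes code for their TALE-class partners. In blood formation, HoxA proteins bind DNA together with Pbx and Meis proteins, and these complexes maintain self-renewal and expansion in stem and early progenitor cells. Several of the genes are switched down as myeloid cells mature, and high expression of HOXA9 together with MEIS1 is a well-known feature of acute myeloid leukemias with rearrangements of KMT2A, whose protein activates the cluster. This account follows 9 of these genes, 6 of the HoxA cluster (Hoxa3, Hoxa4, Hoxa5, Hoxa7, Hoxa9 and Hoxa10), the cofactor gene Meis1 and the cofactor genes Pbx2 and Pbx3, in common myeloid progenitors (CMPs) of young and old mice. They were chosen by name, with earlier results of these data known. They are 9 of 34797 gene names on the array, measured by 11 of 55681 probes.

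CMPs are bone marrow progenitors that give rise to granulocytes, monocytes, megakaryocytes and red cells. They were sorted by flow cytometry from untreated wildtype C57BL/6J mice, 4 samples labelled as 2 to 3 months old (young, replicates 3 to 6) and 4 as 22 to 24 months old (old, replicates 2 to 5). RNA of each sample was hybridized to 1 array, and the study asked which genes differ with age in these progenitors. The series text and the methods give somewhat different age ranges for the same samples, and the methods describe mice of both sexes. The labels do not say that each array stands for a separate mouse, and the paper gives fewer mice per age than there are arrays, so the p-values measure the spread between these samples.

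All values are log2 signals relative to the 75th percentile of the array, so that 0 stands for a signal at that percentile and a step of 1 for a factor of 2. Probes bind their targets with different strength, so levels are compared between arrays for 1 probe and never between probes. A gene counted as called when limma gave 1 of its probes a difference of at least 1.5-fold with p under 0.05 after Benjamini-Hochberg adjustment over all 33479 tested probes. The 8 arrays lay on 2 slides with 2 young and 2 old arrays on each (slide 1 held young replicates 5 and 6 and old replicates 3 and 5), and between 55.6% and 63.2% of the probes of an array were well above background.

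The sorted cells carried the transcripts of their gate. Kit and Cd34, which mark CMPs, were well above background on all 8 arrays, as were Fcgr3, Fcgr2b and Il3ra. Ly6a, which codes for the Sca-1 antigen that the gate excludes, was also well above background on all 8 arrays, with values from -1.38 to 0.03. It was lower in old CMPs without overlap, with a difference of -0.73 (standard error 0.23, adjusted p = 0.414 by limma). Transcripts of lymphoid and stromal lists were also measured. Of 17 lymphoid genes, 7 (among them Cd79b, Cd3e and Cd4) were well above background on all 8 arrays, and Igll1, Ebf1 and Pax5 on none. Of 12 stromal and endothelial genes, 6 (among them Kdr and Lepr) were so on all 8 arrays, and Pdgfra and Vcam1 on none.

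The probes behind the results are 60-base oligonucleotides, and their places in the mouse genome are given for build mm9. The following stretches are bases 1 to 30 of the probes on which the age differences turn, those of Hoxa10, Meis1 and Pbx3, together with the pair of Hoxa9 probes, which did not move alike. Capitals mark a match to the seed of miR-196b-5p, a microRNA whose gene lies between Hoxa9 and Hoxa10 in RefSeq (build GRCm38.p6).
Hoxa9 brightest probe: taaaaagagagcaagctagaaagaaaaaga
Hoxa9 second probe: tttgtccctgactgactatgcttgtggttc
Hoxa10 probe: tcttttcttccttggccaagagcagagtat
Meis1 probe: gtcatgtgtgtatttttccatagtcccacc
Pbx3 brightest probe: caccctggattgaaaagtcttccttgtggt
Pbx3 second probe: gcgctcacttACTACCTctgaacaatactc
miR-196b-5p: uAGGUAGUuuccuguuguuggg
In the last line the capitals are the seed, bases 2 to 8 of the mature microRNA from RefSeq. The complement of the seed, ACTACCT, was found in 1 of the 11 HoxA, Meis1 and Pbx probes and in 188 of all 55681 probes (0.338%), read on the probe strand only. A match is a description of the letters and not a binding site.

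The 11 probes were well above background on all 8 arrays, so every gene was tested. No gene was called in either direction by limma, with the smallest adjusted p at 0.220, while 0.207% of the 23161 gene names tested were called higher and 0.0432% lower in old CMPs. At an unadjusted p under 0.05, limma marked 4 of the 11 probes, of 3 genes (Hoxa10, Meis1 and both probes of Pbx3), and the methods' t-test marked 4 probes of 3 genes. All 4 were higher in old CMPs, and over all tested probes limma marked 3.61% as higher and 2.73% as lower at this level. Without overlap between the ages, old arrays lay above young arrays for 3 probes (Hoxa10, Meis1 and the brightest probe of Pbx3) and below for none, where 2.86% of all tested probes lay above and 1.57% below. By the brightest probe of each gene, 5 genes were higher and 4 lower in old CMPs, with a median difference of 0.05, and the median over all tested probes was -0.02. Because the genes were chosen with earlier results of these data known, these counts and shares describe the set and do not test it.

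**Figure D1:**
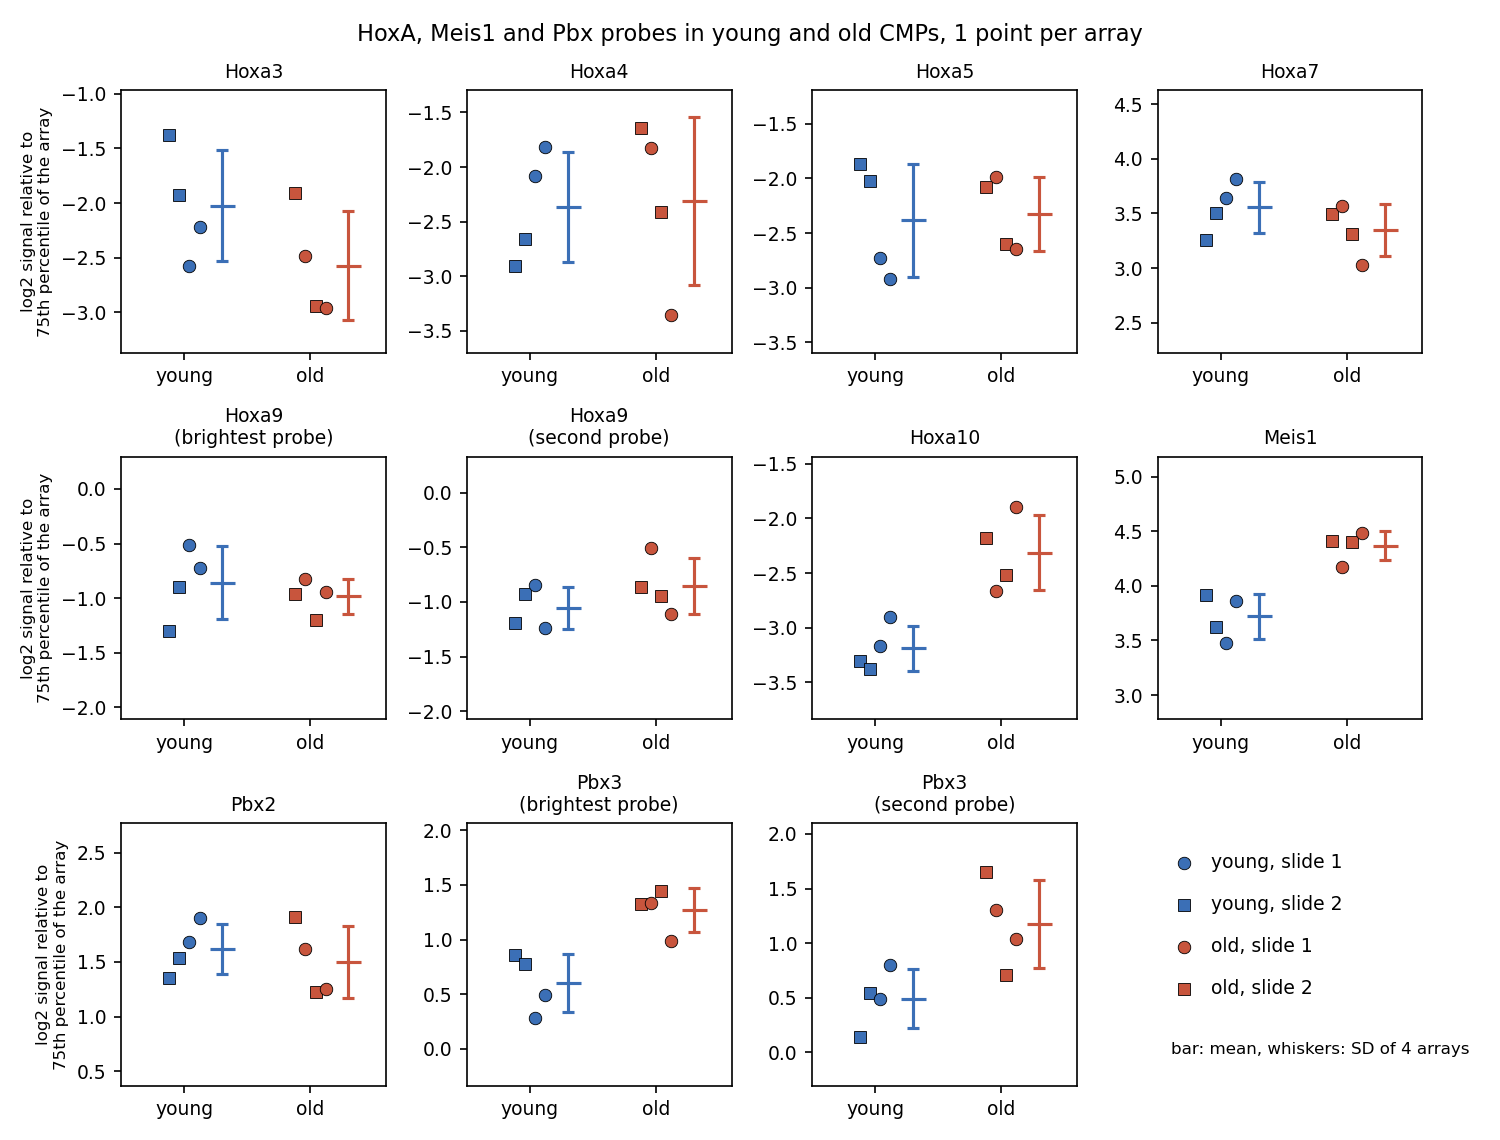
Each panel plots 1 probe, with the log2 signal against the 75th percentile of the array on the vertical axis (every panel spans the same range) and age on the horizontal axis. Points are arrays, circles on slide 1 and squares on slide 2, and bars with whiskers are mean and SD of 4 arrays. All old arrays lie above all young arrays for Hoxa10, Meis1 and the brightest probe of Pbx3, and the ages overlap for the other 8 probes.

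Hoxa10, a posterior gene of the cluster that is known for its expression in early myeloid and megakaryocytic progenitors, had the largest age difference among the 9 genes. Its probe (chr6:52181922-52181981, minus strand) measured -3.30, -3.38, -3.17 and -2.91 in the young arrays 3 to 6 and -2.18, -2.66, -2.51 and -1.90 in the old arrays 2 to 5. The lowest old array, replicate 3, lay above the highest young array, replicate 6, so the ages did not overlap. Young arrays averaged -3.19 ± 0.21 (SD, n = 4) and old arrays -2.31 ± 0.34 (SD, n = 4), a difference of 0.87 with a standard error of 0.22 and a 95% confidence interval from 0.39 to 1.36, or 1.83-fold. The exact two-sided permutation test over the 8 arrays gave p = 0.0286, the smallest that 4 against 4 arrays allow, and the adjusted p of limma was 0.220. The difference was 0.76 on slide 1 and 0.99 on slide 2. The probe was dim, with background-corrected intensities from 39.2 to 114 on the linear scale of the scanner. In bulk RNA of sorted cells, more cells of a type and more of the transcript per cell cannot be told apart, here and in the results that follow.

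Meis1 codes for the TALE cofactor that stabilizes HoxA9 and Pbx complexes on DNA and is itself needed for stem cell maintenance. Its probe (chr11:18780695-18780754, minus strand) measured 3.92, 3.62, 3.47 and 3.87 in the young arrays 3 to 6 and 4.41, 4.17, 4.40 and 4.49 in the old arrays 2 to 5. The 4 old arrays were all higher than the 4 young arrays, with the closest values at 3.92 and 4.17. The difference was 0.65 (standard error 0.18, 95% confidence interval 0.25 to 1.04), or 1.57-fold, with p = 0.0286 by the exact permutation test and an adjusted p of 0.304 by limma. It was 0.66 on slide 1 and 0.64 on slide 2. Meis1 was bright, with intensities from 3912 to 11008.

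Pbx3, the Pbx gene most often named as a partner of HoxA9 and Meis1 in leukemia, was read by 2 probes. The brightest (chr2:34026999-34027058, minus strand) measured 0.86, 0.78, 0.28 and 0.49 in the young arrays 3 to 6 and 1.32, 1.34, 1.45 and 0.99 in the old arrays 2 to 5. Again the lowest old array lay above the highest young array. The difference was 0.67 (standard error 0.20, 95% confidence interval 0.23 to 1.11), or 1.59-fold, with p = 0.0286 by the exact permutation test and an adjusted p of 0.366 by limma. The second probe (chr2:34027481-34027540) measured 0.14, 0.54, 0.48 and 0.80 in young and 1.65, 1.30, 0.71 and 1.04 in old arrays. Here old replicate 4 fell below young replicate 6, so the ages overlapped, yet the difference of 0.68 (standard error 0.24, adjusted p = 0.545 by limma) was close to that of the other probe. Pearson's r between both probes was 0.56 over the 8 arrays.

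Hoxa9, the member of the cluster best known for its role in progenitor expansion and leukemia, overlapped between the ages at both probes. Its brightest probe (chr6:52174165-52174224, minus strand) measured -1.30, -0.89, -0.51 and -0.72 in the young arrays 3 to 6 and -0.96, -0.82, -1.2 and -0.94 in the old arrays 2 to 5. All 4 old arrays fell within the range of the young arrays. The difference was -0.13 (standard error 0.21, 95% confidence interval -0.59 to 0.34, adjusted p = 0.998 by limma). The second probe (chr6:52175595-52175654) differed by 0.20 (standard error 0.19, 95% confidence interval -0.24 to 0.63), so the probes had opposite signs. Their r over the 8 arrays was 0.29. Both intervals include 0, and the sign of the Hoxa9 difference is not settled by these arrays.

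Hoxa7, which is co-expressed with Hoxa9 in early progenitors, was read by a bright probe, with intensities from 2872 to 7245. It measured 3.26, 3.51, 3.64 and 3.82 in the young arrays 3 to 6 and 3.49, 3.57, 3.31 and 3.03 in the old arrays 2 to 5. Old replicate 5 was below every young array and the other old arrays lay among them. The difference was -0.21 (standard error 0.20, 95% confidence interval -0.65 to 0.24).

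The anterior genes of the cluster, which pattern the neck and upper trunk in the embryo, were read by dim probes, with intensities from 37.6 to 166, and had the widest errors of the 9 genes. Hoxa3 had the largest difference toward lower values, with -1.38, -1.92, -2.58 and -2.22 in the young arrays 3 to 6 and -1.91, -2.49, -2.95 and -2.96 in the old arrays 2 to 5. The 2 lowest values were old and the highest was young, but the ages overlapped in between, and the difference was -0.55 (standard error 0.32, 95% confidence interval -1.25 to 0.15, adjusted p = 0.950 by limma). Hoxa4 differed by 0.05 with a standard error of 0.39, the widest of the 11 probes, and old replicates 2 and 5, at -1.64 and -3.35, were the highest and the lowest of all 8 arrays. Its difference was -0.64 on slide 1 and 0.75 on slide 2. Hoxa5 differed by 0.06 with a standard error of 0.28, and here the values were 0.51 on slide 1 and -0.40 on slide 2. In young CMPs Hoxa5 measured -1.87 and -2.02 on slide 2 against -2.72 and -2.92 on slide 1, so the slides did not overlap within this age. In old CMPs they overlapped, with -2.08 and -2.60 on slide 2 and -1.99 and -2.64 on slide 1. Hoxa5 was not alone in this. By their brightest probes, Hoxa3 and Pbx3 also lay higher on slide 2 in young CMPs without overlap. Hoxa4, Hoxa7, Hoxa9, Hoxa10 and Pbx2 lay higher on slide 1 without overlap, and for Meis1 the slides overlapped. In old CMPs the slides were apart for the brightest probe of Hoxa9 only. The cause was not tested.

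Pbx2, the Pbx gene thought to be expressed in nearly all tissues, measured 1.36, 1.53, 1.68 and 1.90 in the young arrays 3 to 6 and 1.91, 1.62, 1.23 and 1.25 in the old arrays 2 to 5 (chr17:34733355-34733414, plus strand). Old arrays held both the highest value and the 2 lowest. The difference was -0.12 (standard error 0.22, 95% confidence interval -0.60 to 0.36), with -0.36 on slide 1 and 0.12 on slide 2.

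**Figure D2:**
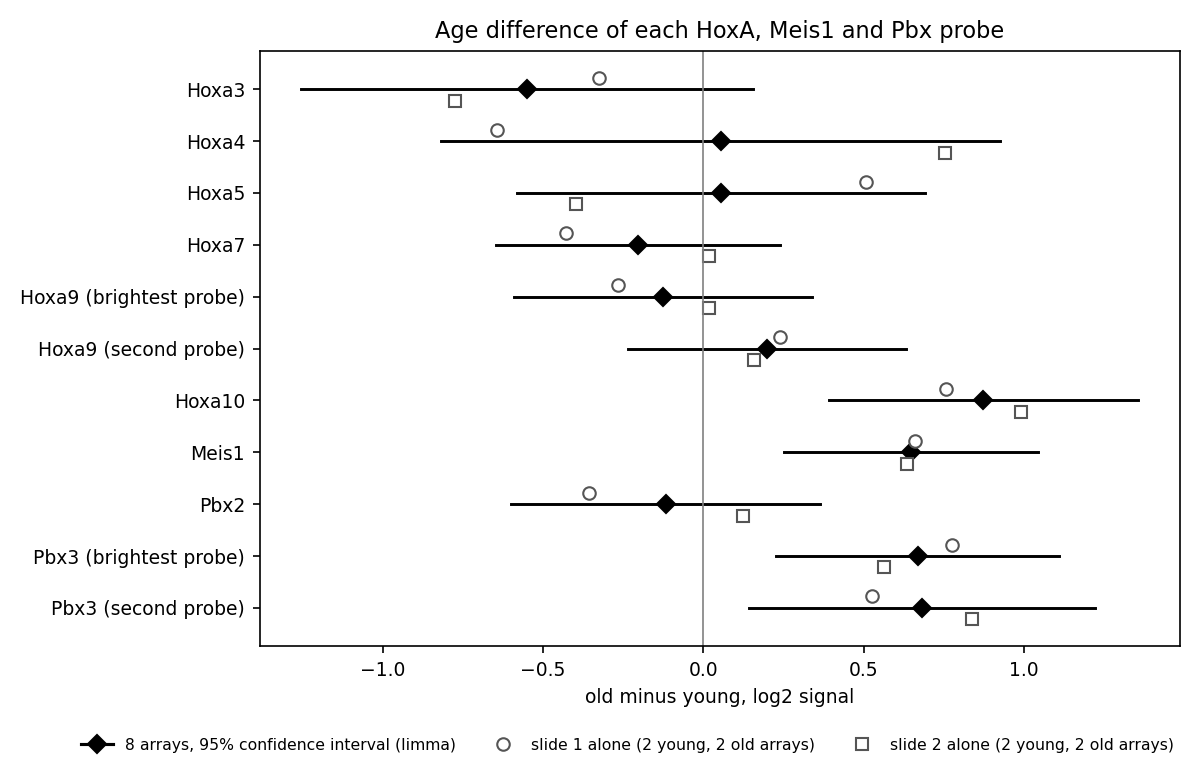
The horizontal axis gives the difference old minus young of each probe in log2 units. Diamonds with lines are the fit to 8 arrays with its 95% confidence interval, and open symbols are the same difference within slide 1 or slide 2 alone. For Hoxa10, Meis1 and both Pbx3 probes the interval and both slides lie above 0, and for Hoxa4, Hoxa5, Hoxa7, Pbx2 and the brightest Hoxa9 probe the slides lie on opposite sides of 0.

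Differences taken within an array do not depend on how arrays are scaled to each other. They were formed for 3 pairs of genes picked after the values were seen, so they carry no test. The value of Hoxa10 minus that of Hoxa9 ran from -2.66 to -2.0 in young and from -1.84 to -0.96 in old arrays, without overlap, and its mean was 1.0 higher in old CMPs. That of Meis1 minus Hoxa9 was 0.77 higher in the mean, from 3.98 to 5.22 in young and from 5.0 to 5.60 in old arrays, with overlap. That of Pbx3 minus Pbx2 was 0.79 higher, from -1.41 to -0.50 in young and from -0.59 to 0.22 in old arrays, also with overlap. Each of these used the brightest probe of a gene, and the second Hoxa9 probe has the opposite sign.

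Across the 8 arrays the 9 genes did not move as a unit. Among the 36 pairs of genes, Pearson's r ran from -0.61 (Hoxa9 and Pbx3) to 0.89 (Hoxa10 and Meis1) with a median of -0.07, and 16 pairs were above 0. These points share the array and its scaling, and an age difference in both genes of a pair raises r by itself. With each age centred on its own mean, Hoxa10 and Meis1 dropped to 0.49 and Meis1 and Pbx3 from 0.82 to 0.24. A different set held together within the ages, namely Hoxa4 with Hoxa7 (0.83 over the arrays, 0.95 after centring), Hoxa7 with Pbx2 (0.83 and 0.84) and Hoxa4 with Pbx2 (0.83 and 0.87). Hoxa3 and Hoxa5 had 0.65 and 0.82. Centring by age does not take out the slide. In young arrays Hoxa4, Hoxa7 and Pbx2 were all higher on slide 1, and Hoxa3 and Hoxa5 both higher on slide 2, without overlap. The part of the slide in these r values was not tested. All r values are descriptions of 8 arrays.

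**Figure D3:**
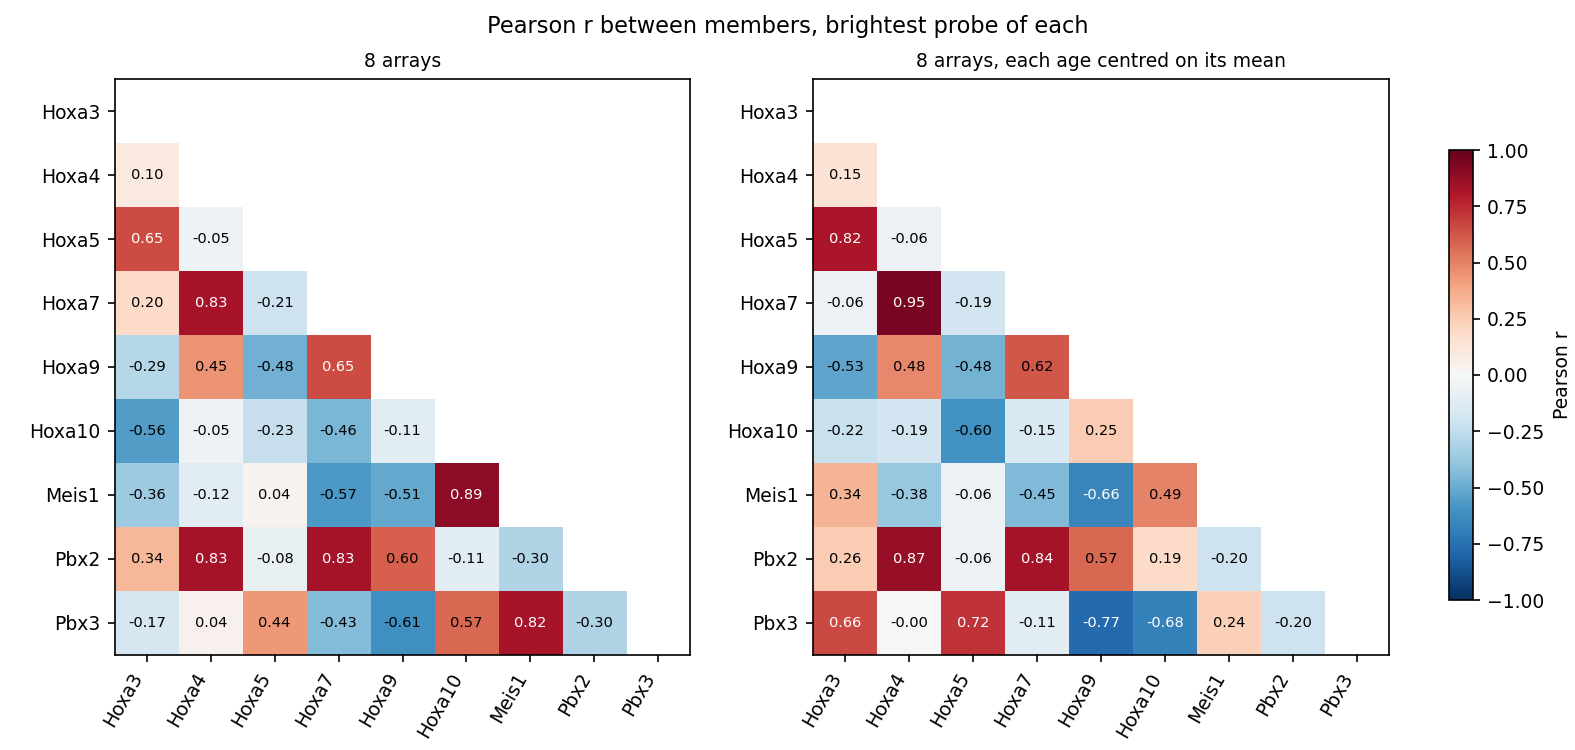
Each square gives Pearson's r between the brightest probes of 2 genes, over the 8 arrays on the left and after centring each age on its mean on the right. Hoxa10, Meis1 and Pbx3 are positively related on the left, Hoxa10 and Pbx3 have opposite sign on the right (0.57 and -0.68), and Hoxa4, Hoxa7 and Pbx2 stay above 0.8 on both sides.

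Among all tested probes, the 5 genes whose pattern over the 8 arrays was most like that of Meis1 were Rbpms2 (r = 0.99), Slc27a6, Rap1b, Gpx8 and Csgalnact1 (each 0.98). All 5 were higher in old CMPs, between 0.57 for Rap1b and 1.77 for Gpx8, and of these Gpx8 was called (adjusted p = 0.0457 by limma). For Hoxa9 they were Phf19, B4galnt1, Cx3cr1 (each 0.98), Fam57a and a transcript without a gene symbol (each 0.97), with differences from -0.24 to -0.06. The likeness was picked from 33479 probes and over 8 arrays. Since the ages of Meis1 did not overlap, the direction of the 5 genes like it follows from that pick.

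Along the HoxA cluster, 18 probes were read between chr6:52112595 and chr6:52209039, of which 10 were tested and none was called. Besides the 7 probes of the genes above, these were Hoxa6, the antisense transcript Hoxa11os (Hoxa11as on the array) and the transcript Hoxaas3 (2700086A05Rik on the array). All 3 had lower means in old CMPs, with a median of -0.39, and none reached an unadjusted p under 0.05. Hoxa6 differed by -0.19 (standard error 0.24), Hoxaas3 by -0.39 (0.27) and Hoxa11os by -0.69 (0.59). For Hoxa11os a single array set the value, since young replicate 5 measured 0.049 and the other 7 arrays lay between -3.15 and -2.46. Hoxa2 was well above background on 3 arrays and Hoxa13, by its brighter probe, on 2, while Hoxa11 was not above background on any array. Of the 10 tested probes of the cluster 1, that of Hoxa10, had ages that did not overlap. Over all tested probes, 2.86% lay above and 1.57% below in old CMPs without overlap. Of all tested gene names, 0.207% were called higher and 0.0432% lower.

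**Figure D4:**
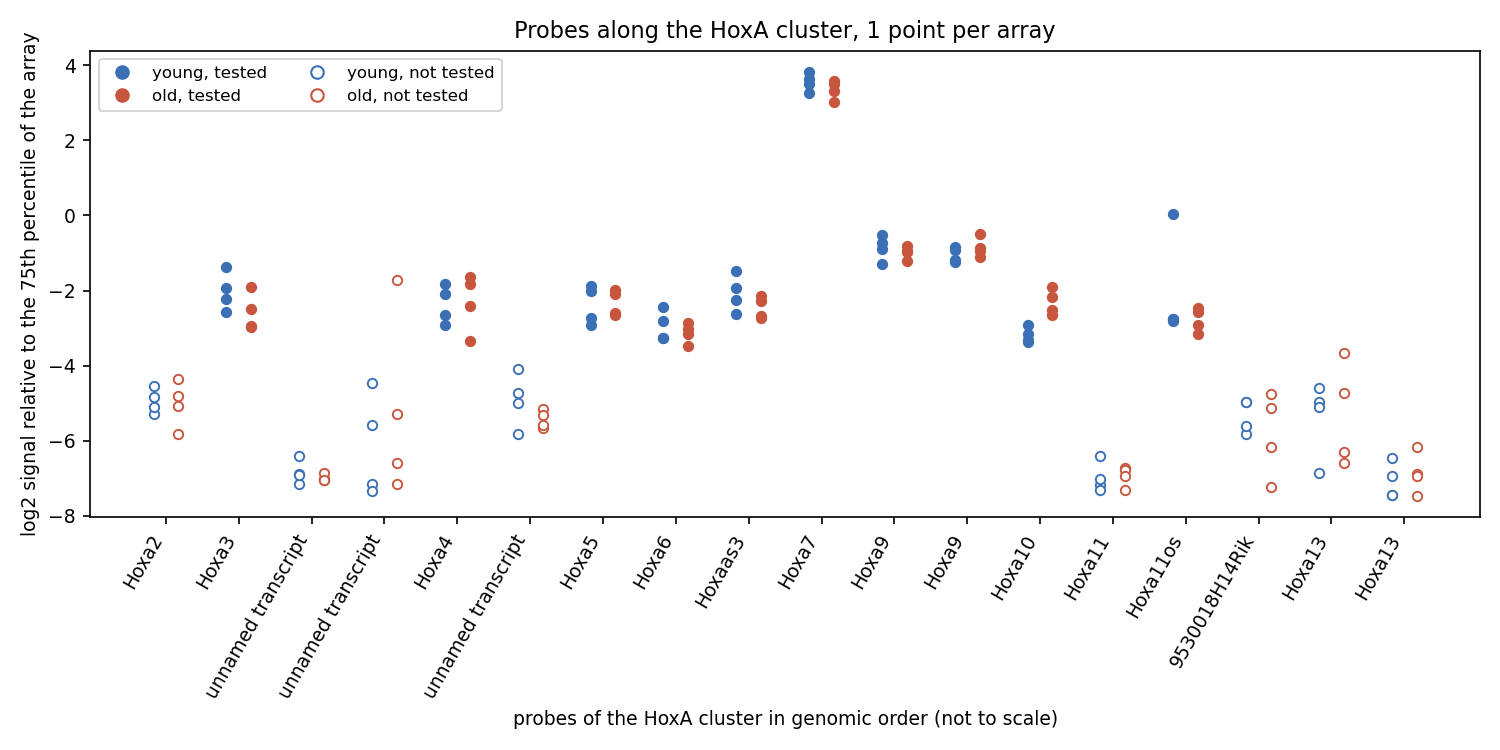
Each column is 1 of 18 probes of the cluster in genomic order, not to scale, with the log2 signal against the 75th percentile of the array on the vertical axis. Filled points are arrays of tested probes and open points those of probes that were too dim to test. Blue is young and red is old, the red points of Hoxa10 lie above its blue points, and 1 young array of Hoxa11os stands apart at 0.049. Heights of different probes are not comparable.

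The other genes of the pathway were grouped into lists by their role, with each gene read by its brightest tested probe, and no gene of these lists was called by limma. Other TALE homeobox genes, which include further Meis and Pbx genes, had 5 tested members, 3 higher and 2 lower, with a median of 0.05 and none at an unadjusted p under 0.05. Pbx4 differed by -0.40 (standard error 0.33). Pknox1, which codes for a Meis-related Pbx partner, differed by 0.30 (0.23), Tgif2 by 0.21 (0.25) and the repressor gene Tgif1 by -0.23 (0.19). Meis2 was not above background on any array, and Meis3 differed by 0.05 (0.20) with overlapping ages.

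Regulators that bind Pbx or Hox proteins or modify them had 9 tested members, 6 higher and 3 lower, with a median of 0.09. The 2 largest positive and 2 largest negative differences were those of Btg2 (0.49, standard error 0.31), whose protein was described as a Hoxb9 coactivator, Cited2 (0.33, 0.24), which codes for a partner of the acetyltransferases Crebbp and Ep300, Gmnn (-0.14, 0.22), which codes for the Hox-binding replication inhibitor geminin, and Pbxip1 (-0.12, 0.19), which codes for a protein that keeps Pbx off DNA. None reached an unadjusted p under 0.05.

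Activators of the cluster, the Kmt2a complex with its partners, had 20 tested members, 8 higher and 12 lower, with a median of -0.01. Kmt2a itself (Mll1 on the array) differed by -0.0027 with a standard error of 0.26. The 2 largest negative and 2 largest positive differences were those of Jmjd1c (-0.61, standard error 0.41), a histone demethylase gene, Aff4 (-0.27, 0.23), which codes for the scaffold of the super elongation complex, Kat6a (0.23, 0.19), an acetyltransferase gene named Myst3 on the array, and Nup98 (0.19, 0.23). A list of Polycomb genes, most of whose products repress the cluster, had 17 tested members, 5 higher and 12 lower, with a median of -0.05. It also held the histone demethylase genes Kdm6b (0.28, 0.19) and Kdm6a (-0.20, 0.26), which do not code for repressors. In this list Suz12 (-0.44, 0.28) and Cbx7 (-0.28, 0.22) were lowest and Cbx8 (0.40, 0.30) and Pcgf2 (0.33, 0.26) highest. In both lists no gene reached an unadjusted p under 0.05.

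Genes described as targets of HoxA9 and Meis1 had 31 tested members, 16 higher and 15 lower in old CMPs, with a median of 0.02. Of these, 2 reached an unadjusted p under 0.05 by limma, both higher. Over all tested probes, limma marked 3.61% as higher and 2.73% as lower at this level. Mycn, a Myc family gene, measured 2.12, 2.06, 1.63 and 2.07 in the young arrays 3 to 6 and 3.07, 2.56, 2.93 and 2.88 in the old arrays 2 to 5. The ages did not overlap, and the difference was 0.89 (standard error 0.19, adjusted p = 0.151 by limma), or 1.85-fold. Gfi1b, a transcription factor gene of erythroid and megakaryocytic cells, also did not overlap, with a difference of 0.57 (0.19, adjusted p = 0.464). Among other genes of the list, Flt3 differed by -0.62 (0.30), Myb by -0.09 (0.19), Sox4 by -0.35 (0.18) and Cd34 by -0.21 (0.18). Toward higher values, Trib2 differed by 0.57 (0.31), Id2 by 0.54 (0.31), Hlf by 0.44 (0.22) and Kit by 0.31 (0.20). Flt3 and Mycn were the ends of the list, with Tcf4 (-0.48, 0.24) and Rgs1 (0.65, 0.66) next to them.

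**Figure D5:**
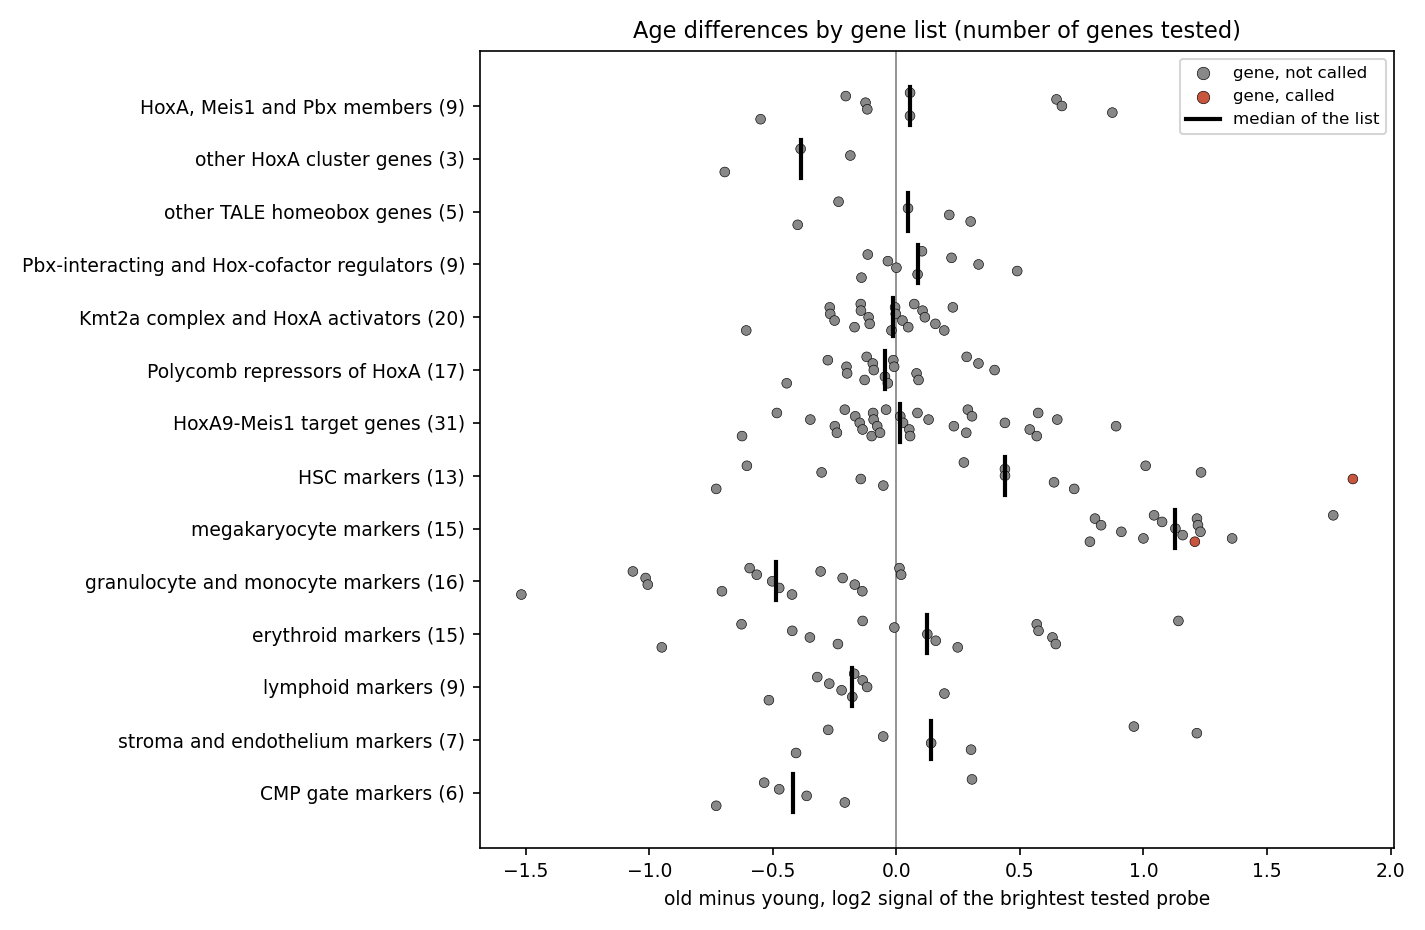
The horizontal axis gives the age difference in log2 units of the brightest tested probe of a gene. Each point is a gene, red where it was called, and the black bar is the median of its list, with the number of tested genes in brackets. The HoxA, Meis1 and Pbx genes and the pathway lists have medians between -0.39 and 0.09, and the 15 megakaryocyte markers all lie above 0 with a median of 1.13.

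Markers of other cells that the gate could hold also differed between the ages in the same samples, mostly without being called. All 15 megakaryocyte markers were tested and had higher means in old CMPs, each at an unadjusted p under 0.05 by limma and 12 without overlap, with a median of 1.13. Their summed signal, on a linear scale with the 75th percentile set to 1, was 141 to 231 in young and 352 to 445 in old arrays. Gp9, a platelet glycoprotein gene, was called (2.31-fold, adjusted p = 0.0327 by limma). Over all tested probes, limma marked 3.61% as higher at an unadjusted p under 0.05, and 2.86% lay above without overlap. Gp1bb, among the 12 markers without overlap, had no value for old replicate 5. Of 13 tested HSC markers, 8 were higher and 5 lower, with a median of 0.44 and summed signals of 20.0 to 29.2 in young and 29.4 to 49.7 in old arrays. Gata2, whose ages overlapped, made up 60.1% to 78.9% of this sum, and without it the sums were 5.95 to 7.99 in young and 9.68 to 12.2 in old arrays. Hoxb5, a gene of the HoxB cluster in this list, was called, with 3.60-fold higher signal in old CMPs (adjusted p = 0.00707 by limma), and was well above background on 3 of 4 young and all 4 old arrays.

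Of 16 tested granulocyte and monocyte markers, 14 were lower and 2 higher, with a median of -0.49 and sums of 1132 to 1466 in young and 849 to 963 in old arrays. The sums of the other lists overlapped between the ages, with 64.7 to 117 in young and 102 to 141 in old arrays for erythroid, 19.6 to 25.4 and 17.7 to 22.4 for lymphoid, 29.8 to 39.3 and 27.1 to 43.0 for stromal and endothelial, and 124 to 152 and 106 to 128 for gate markers. A sum follows its brightest genes, and Kdr made up 42.2% to 52.7% of the stromal and endothelial sum. Of 15 tested erythroid genes, 3 (Aqp1, Car2 and Gfi1b) were higher in old CMPs without overlap. So were 2 (Col1a2 and Emcn) of 7 tested stromal and endothelial genes. None of either list was lower without overlap, where 2.86% of all tested probes lay above and 1.57% below. Meis1 and Hoxa10 are also known to be expressed in HSCs and in cells of the megakaryocytic line. The part of the markers in the differences of Hoxa10, Meis1 and Pbx3 was not tested.

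Promoter sequences from RefSeq (GRCm38.p6) were matched by symbol for 7 of the 9 genes, with 8 promoters. Hoxa4 and Pbx3 were not matched. The letters TGATTNAT, a composite site of Hox and Pbx proteins, were found on either strand in none of the 8 promoters and in 3.22% of all 32851 promoters of that length. The Meis site TGACAG was found in 1 of the 8, that of Hoxa3, and in 19.2% of all promoters.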

How the data were processed

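RNA of sorted CMPs was measured on 8 Agilent arrays of 1 colour, 4 young and 4 old, from 100 ng of RNA each. Per the file headers, the deposited intensity of each spot is the background-corrected signal of Feature Extraction 10.7.3.1, and probe coordinates are mm9. The authors also deposited a table of log2 values, shifted to the 75th percentile and centred, which was used as an alternative only and whose columns correlated with these values at 0.999 per array.

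The log2 intensity minus the 75th percentile of the 59305 non-control spots was taken for each array. Spots marked as non-uniform or population outliers were left out (141 to 230 per array, none saturated), and spots of a probe were averaged. Probes well above background on at least 4 of 8 arrays were tested, whatever the age, with limma 3.58.1 (lmFit, eBayes) and the data.table package (version 1.17.8) in R 4.3.3. Single genes were also tested by an exact permutation test over the 70 splits of 4 and 4 arrays. The fitting code was also run on simulated data with known changes, drawn with the means and spreads of these arrays. Arrays have no read depth, so the number of arrays and the number on which a probe was well above background are given instead.

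The text names every one of the 9 genes, the called genes or otherwise the 2 largest rises and 2 largest falls of each pathway list, the 5 genes most like Hoxa9 and Meis1, and called markers. Other genes named beside them were added afterwards. The 9 genes, the lists and the tests were chosen with earlier results of these data known. Alternatives were background correction by normexp with an offset of 50, quantile and median scaling, the authors' table, 3 filters on dim probes, means over probes, other variance models, the methods' t-test, replicate and slide blocks, each slide alone and leaving out each array. Exon annotation was not used here, and some genes of the lists are not reported here.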

Additional observations from a re-analysis of the deposited data

Results flagged for a closer look

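In 3 of 72 groups of 4 arrays, 1 array stood apart from the other 3 by more than the critical value of Dixon's test for 4 values, and chance alone gives this in about 1 in 20 groups. The antisense transcript Hoxa11os (Hoxa11as on the array) measured 0.049 in young replicate 5, the highest of 4, and the other young arrays lay between -2.82 and -2.76. Tgif1 measured 2.11 in old replicate 3, the lowest of 4 old arrays. Mycn measured 1.63 in young replicate 5, the lowest of 4 young arrays, and its ages did not overlap. None of the 11 HoxA, Meis1 and Pbx probes had an array that stood apart by this measure.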

How the results depend on the processing

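None of the 9 genes was called under any of the alternatives. Hoxa10, Meis1, Pbx3 and Hoxa3 kept their direction under all 23. Their differences ran from 0.56 to 0.99, 0.54 to 0.77, 0.56 to 0.79 and -0.84 to -0.23. Not all of the 23 could change a difference. The filters on dim probes, the intensity trend, the methods' t-test and the slide block returned the main value for each of these genes. So did the mean over probes for Hoxa10, Meis1 and Hoxa3. Such settings change the error or the adjustment only, so they do not test the direction. Leaving out each array in turn gave 0.74 to 0.99 for Hoxa10, 0.57 to 0.71 for Meis1, 0.56 to 0.77 for Pbx3, -0.77 to -0.34 for Hoxa3, -0.30 to -0.10 for Hoxa7, -0.27 to -0.01 for Hoxa9 and -0.25 to -0.02 for Pbx2. It turned the sign of Hoxa4 (-0.17 to 0.40) and Hoxa5 (-0.12 to 0.23). On slide 1 alone Hoxa4 was at -0.64. On slide 2 alone Hoxa5 was at -0.40, Hoxa7 at 0.018, Hoxa9 at 0.016 and Pbx2 at 0.12. Hoxa9 turned to 0.063 in the authors' table, where a single line covers its 2 probes, and to 0.036 as the mean of its probes. Both settings thus draw on the second probe. Pbx2 turned to 5.1e-05 after scaling to the median, which moved the median of all probes to 0.10. Replicate numbers did not pair the samples (deviations of same-numbered arrays correlated at -0.09, -0.14 and 0.15), and with them as a replicate block Hoxa5 turned to -0.21, with 12 genes of the array called higher and 1 lower.

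Counts over all genes, 48 higher and 10 lower, depended more on the setting. They were 75 and 21 with normexp, 128 and 46 with array weights, 24 and 2 without a filter on dim probes and 0 and 0 by the methods' t-test (590 and 359 unadjusted) and on slide 1 or slide 2 alone. With an intensity trend 77 were higher. The lower count was 3 with quantile scaling, 5 with the median, 4 with slides blocked, 6 in the authors' table and with all 8 arrays above background, and 17 with all arrays of an age. Without each array in turn the counts were 22 to 37 higher and 2 to 6 lower, and the higher count was at most 27 without young replicate 4 or 5 or any old replicate. The cause was not tested. With 4 arrays an age, the 95% confidence intervals of Hoxa3 (-1.25 to 0.15), Hoxa4 (-0.82 to 0.93) and Hoxa5 (-0.58 to 0.69) include 0. These arrays do not settle the direction of the 3 differences. The Hoxa10 probe, also dim, had a standard error of 0.22, and why the errors differ between probes was not tested.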

Other observations

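Hox genes outside the HoxA cluster were read by name alone, after the other values were seen. Of 28 HoxB, HoxC and HoxD genes on the array, 7 had a tested probe, 5 of the HoxB and 2 of the HoxC cluster and none of the HoxD cluster. Of these, 6 were higher and 1 was lower in old CMPs, and 3 were called higher by limma, where 0.207% of all gene names were.

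Hoxb2 measured -3.28, -3.19, -3.35 and -3.02 in the young arrays 3 to 6 and -1.57, -1.07, -1.32 and -0.57 in the old arrays 2 to 5, a difference of 2.08 (standard error 0.23, adjusted p = 0.00707). Hoxb5 measured -4.43, -4.80, -4.16 and -4.38 in young and -2.82, -2.38, -2.79 and -2.40 in old arrays, a difference of 1.85 (0.20, adjusted p = 0.00707). Hoxc6 measured -5.02, -5.01, -4.92 and -4.08 in young and -2.97, -2.54, -3.0 and -2.14 in old arrays, a difference of 2.10 (0.28, adjusted p = 0.0249). The ages did not overlap for any of the 3 genes, and Hoxb5 and Hoxc6 were well above background on 3 of 4 young arrays. Hoxb3 differed by 0.33 (0.23), Hoxb4, a gene known for stem cell expansion, by 0.22 (0.17), Hoxb6 by 0.17 (0.24) and Hoxc12 by -0.21 (0.45), all with overlapping ages. Adjusted p-values are those of limma over all tested probes. Whether these genes differ from those of the HoxA cluster was not tested.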
